A study of Mus musculus with 12 samples.

Results

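A set of genes that mark fat cells, Adipoq, Plin1, Cfd, Lep, Cidec, Retn, Ucp1, Cidea, Car3 and Lipe, were followed library by library in lung and heart, as 10 of the 55679 genes in the deposited gene table. They were picked by gene symbol as genes of white and brown fat, to describe attached fat as a source of spread between samples. The study compared Adam19 knockout (KO) with wildtype (WT) mice, all adult males of the 129S6/SvEvTac strain, with the lung and the heart taken from each of 6 mice (3 WT and 3 KO) and 12 libraries in all. In KO mice a tdTomato reporter and a hygromycin resistance cassette stood in place of Adam19 exons 6 and 7 in every tissue from the germline on, and WT mice carried the intact gene. None of the animals behind these libraries was described as treated. The replicate number below names the mouse, so lung WT 1 and heart WT 1 are organs of 1 animal. The labels do not give the litter, cage or day of collection of a mouse. Whole organs were frozen, and trimming of fat from them is not described in the sources used here.

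White adipocytes store triglyceride in a single large droplet and release hormones such as adiponectin and leptin. Brown adipocytes hold many small droplets and many mitochondria, in which UCP1 lets protons return without making ATP, so that fuel is burned as heat. Fat of both kinds lies around the heart, the great vessels and the root of the lung, and can be removed together with these organs.

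As a set, adipocyte genes were present in both tissues of every mouse. Most of them differed more between mice of the same genotype than the bulk of genes did. Libraries high and low in these genes came from both genotypes in each tissue. Of the 10 genes, 8 carried the authors' mark of a detected gene, and Lep and Retn did not. Lep had only 1.85 estimated counts in heart WT 3 and 3.19 in heart KO 2. Values are the authors' normalized gene abundances on a log2 scale, on which a difference of 1 is a doubling, with n = 3 mice per group. Adam19 itself followed the genotype labels, at 9.22 ± 0.16 (SD) in WT and 3.72 ± 0.65 in KO lung, and at 9.56 ± 0.61 in WT and 6.42 ± 0.36 in KO heart. Libraries held 17674788 to 28043361 estimated counts in lung and 18392292 to 35862932 in heart. In bulk tissue, a smaller number of fat cells and less RNA per fat cell cannot be told apart.

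The stretches just before the transcription start of 4 members are shown first, since members that moved together across libraries may be read against the letters before their genes. Each is the 250 bases upstream of the first base of the gene's canonical transcript, 5′ to 3′ on the gene's strand, from the GRCm39 (mm39) genome with the GENCODE vM39 annotation. Adiponectin's gene is at chr16:22964106-22976810 (plus strand), and its window at chr16:22965036-22965285. Perilipin 1 is encoded at chr7:79369966-79382718 (minus strand), with the window chr7:79382719-79382968. Adipsin, Cfd, is at chr10:79726668-79728496 (plus strand), with the window chr10:79726418-79726667. Leptin is at chr6:29060216-29073877 (plus strand), with the window chr6:29059966-29060215. The Adipoq window lies inside the annotated span of its gene, and the windows of Plin1, Cfd and Lep lie just outside theirs. Overlap of the windows with annotated exons was not examined. Capitals mark the only match to a searched motif.

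Adipoq: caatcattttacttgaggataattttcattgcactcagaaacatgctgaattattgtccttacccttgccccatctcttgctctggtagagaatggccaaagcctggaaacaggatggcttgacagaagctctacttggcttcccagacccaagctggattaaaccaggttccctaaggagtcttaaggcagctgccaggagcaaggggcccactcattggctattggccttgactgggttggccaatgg

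Plin1: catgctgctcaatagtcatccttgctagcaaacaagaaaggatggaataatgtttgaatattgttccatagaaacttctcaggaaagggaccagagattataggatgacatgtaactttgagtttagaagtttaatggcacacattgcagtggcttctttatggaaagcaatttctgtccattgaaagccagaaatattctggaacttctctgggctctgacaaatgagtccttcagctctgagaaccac

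Cfd: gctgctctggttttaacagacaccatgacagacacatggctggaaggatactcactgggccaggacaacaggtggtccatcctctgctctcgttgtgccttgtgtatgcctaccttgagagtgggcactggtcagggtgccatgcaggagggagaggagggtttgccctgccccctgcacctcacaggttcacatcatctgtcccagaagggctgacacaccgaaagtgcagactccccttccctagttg

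Lep: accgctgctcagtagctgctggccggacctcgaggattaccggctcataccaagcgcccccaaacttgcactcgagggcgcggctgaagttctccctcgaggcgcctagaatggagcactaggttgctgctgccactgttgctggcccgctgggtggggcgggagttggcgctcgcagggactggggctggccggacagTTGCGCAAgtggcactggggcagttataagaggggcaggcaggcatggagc

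Motifs were searched on both strands of the same 250-base window in 21770 protein-coding genes and in the 10 members. The C/EBP-type motif TTGCNNAA was found in 1 of 10 members, Lep, 51 to 44 bases before the start, against 9.34% of all windows. The TATA box TATAAA was in 0 of 10 members, against 11.9% of all windows. A direct repeat of 2 nuclear receptor half-sites, AGGNCANAGGNCA, was in 0 of 10 members, against 0.349% of all windows. The motifs do not overlap in any member, and a window without a match says only that these letters are not in it. For 3 members the canonical transcript held few of the gene's estimated counts in these libraries. Its share was 1.07% in lung and 0% in heart for Lipe, 0.547% and 3.2% for Retn, and 11.9% and 10.1% for Cidec. The main transcripts of Lipe and Cidec start at other bases, and the stretches before those starts were not searched.

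Among the secreted products, Adipoq encodes adiponectin, a hormone made by fat cells that raises insulin sensitivity. In lung, Adipoq stood at 8.98, 6.75 and 9.22 in WT 1 to 3 and at 8.45, 9.59 and 7.70 in KO 1 to 3. In heart it stood at 9.70, 8.24 and 5.93 in WT 1 to 3 and at 9.86, 6.78 and 8.60 in KO 1 to 3. WT and KO values overlapped in both tissues. The highest and the lowest library differed 7.16-fold in lung (KO 2 against WT 2) and 15.2-fold in heart (KO 1 against WT 3).

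Cfd encodes adipsin, complement factor D, a serine protease that fat cells secrete. Lung values were 10.72, 8.51 and 10.39 in WT and 9.57, 10.82 and 8.81 in KO mice, in replicate order. Heart values were 10.53, 8.996 and 7.20 in WT and 10.15, 8.02 and 9.35 in KO mice. As for Adipoq, lung KO 2 was the highest lung and lung WT 2 the lowest, and heart WT 3 was the lowest heart, but here heart WT 1 and not heart KO 1 was the highest.

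Leptin, the product of Lep, reports the size of the fat stores to the brain. Lep was the least abundant member per length in both tissues, with 1.85 estimated counts in heart WT 3 and 3.19 in heart KO 2, where a listed 0 would still allow 3 counts. Its lung values were 4.30, 3.87 and 5.35 in WT and 4.64, 5.38 and 5.03 in KO mice, a 2.85-fold range. In heart the values were 4.66, 4.07 and 2.27 in WT and 5.57, 1.96 and 4.56 in KO mice, a 12.2-fold range. The groups overlapped, and the low hearts were again WT 3 and KO 2.

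Retn encodes resistin, a cysteine-rich hormone of mouse white fat, at chr8:3705324-3710689 (plus strand). It stood at 5.16, 3.55 and 5.94 in WT and at 4.79, 6.01 and 4.15 in KO lungs. Hearts gave 5.69, 4.55 and 3.61 in WT and 5.10, 3.61 and 4.87 in KO mice. The lung order of the 6 mice was the same as that of Adipoq.

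On the lipid droplet, Plin1 encodes perilipin 1, the coat protein of large adipocyte droplets. Plin1 stood at 8.51, 6.73 and 7.88 in WT and at 7.94, 9.15 and 6.87 in KO lungs. In heart it stood at 9.73, 8.85 and 6.94 in WT and at 10.28, 7.37 and 8.98 in KO mice. The heart order of the 6 mice was that of Adipoq.

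Cidec (chr6:113400691-113412721, minus strand) encodes a droplet protein that moves lipid from small droplets into larger ones. In heart, Cidec followed Adipoq closely, at 9.73, 8.54 and 5.96 in WT and at 9.97, 7.20 and 8.51 in KO mice, a 16.1-fold range. Lungs spread less, at 9.38, 8.76 and 8.50 in WT and at 9.31, 10.03 and 8.84 in KO mice, a 2.88-fold range. The lowest lung for Cidec was WT 3, which was the second highest for Adipoq.

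The share of each Cidec transcript was compared between the tissues, and none passed after adjustment. ENSMUST00000113089 made up 14.1 to 54.7% (median 34.7%) of the gene's estimated counts in lung and 44.6 to 94.6% (median 67.9%) in heart, and its share was higher in the heart of 6 of 6 mice (exact two-sided sign-flip permutation test over mice, p = 0.0312, the smallest that 6 mice allow, and 0.125 after Benjamini-Hochberg adjustment over the 4 Cidec transcripts). ENSMUST00000032416 made up 38.2 to 75.9% (median 51.5%) in lung and 0 to 49.4% (median 21.0%) in heart, higher in the lung of 5 of 6 mice (same exact test, p = 0.0625, adjusted 0.125). Both have 6 exons in the vM39 annotation, with lengths of 2624 and 2609 bases and first bases at 113412721 and 113412717, and the reads that tell them apart were not counted here. This gene was picked for transcripts after its values were seen.

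Cidea encodes the related droplet protein of brown fat. It was higher in every heart than in the lung of the same mouse, at 10.32, 8.76 and 8.81 in WT and 10.56, 8.94 and 9.53 in KO hearts. Lung values were 7.80, 5.43 and 7.37 in WT and 7.58, 8.79 and 5.78 in KO mice. Heart WT 3, the poorest heart in Adipoq, still held 257 estimated counts of Cidea beside 34.2 of Adipoq and 12.8 of Ucp1.

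Lipe encodes hormone-sensitive lipase, which breaks down stored diglyceride and is also made in muscle and steroid-forming cells. Its gene is at chr7:25078880-25098135 (minus strand). Lung values were 9.91, 9.13 and 9.03 in WT and 9.68, 10.17 and 9.89 in KO mice. Heart values were 10.66, 10.17 and 9.97 in WT and 11.15, 10.57 and 10.62 in KO mice. Lipe varied least of the 10, with a 2.21-fold range in lung and a 2.27-fold range in heart.

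Ucp1 (chr8:84016647-84025085, plus strand), the uncoupling protein of brown adipocytes, varied most. In lung it stood at 7.95, 4.75 and 8.98 in WT and at 7.87, 10.43 and 5.85 in KO mice, a 51.1-fold range. In heart it stood at 11.61, 9.21 and 4.58 in WT and at 11.75, 7.65 and 10.05 in KO mice, a 144-fold range. That range runs from 12.8 estimated counts in heart WT 3 to 3719 in heart KO 1. The 6 mice took the same order as for Adipoq in lung and again in heart.

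Car3 (chr3:14928489-14937595, plus strand) encodes carbonic anhydrase 3, abundant in the cytosol of adipocytes and of slow skeletal muscle. It was the most abundant member per length in both tissues. Lungs stood at 11.42, 10.05 and 11.30 in WT and at 11.21, 12.07 and 10.51 in KO mice. Hearts stood at 12.04, 11.16 and 8.38 in WT and at 12.28, 9.31 and 10.82 in KO mice, a 14.9-fold range.

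**Figure D1:**
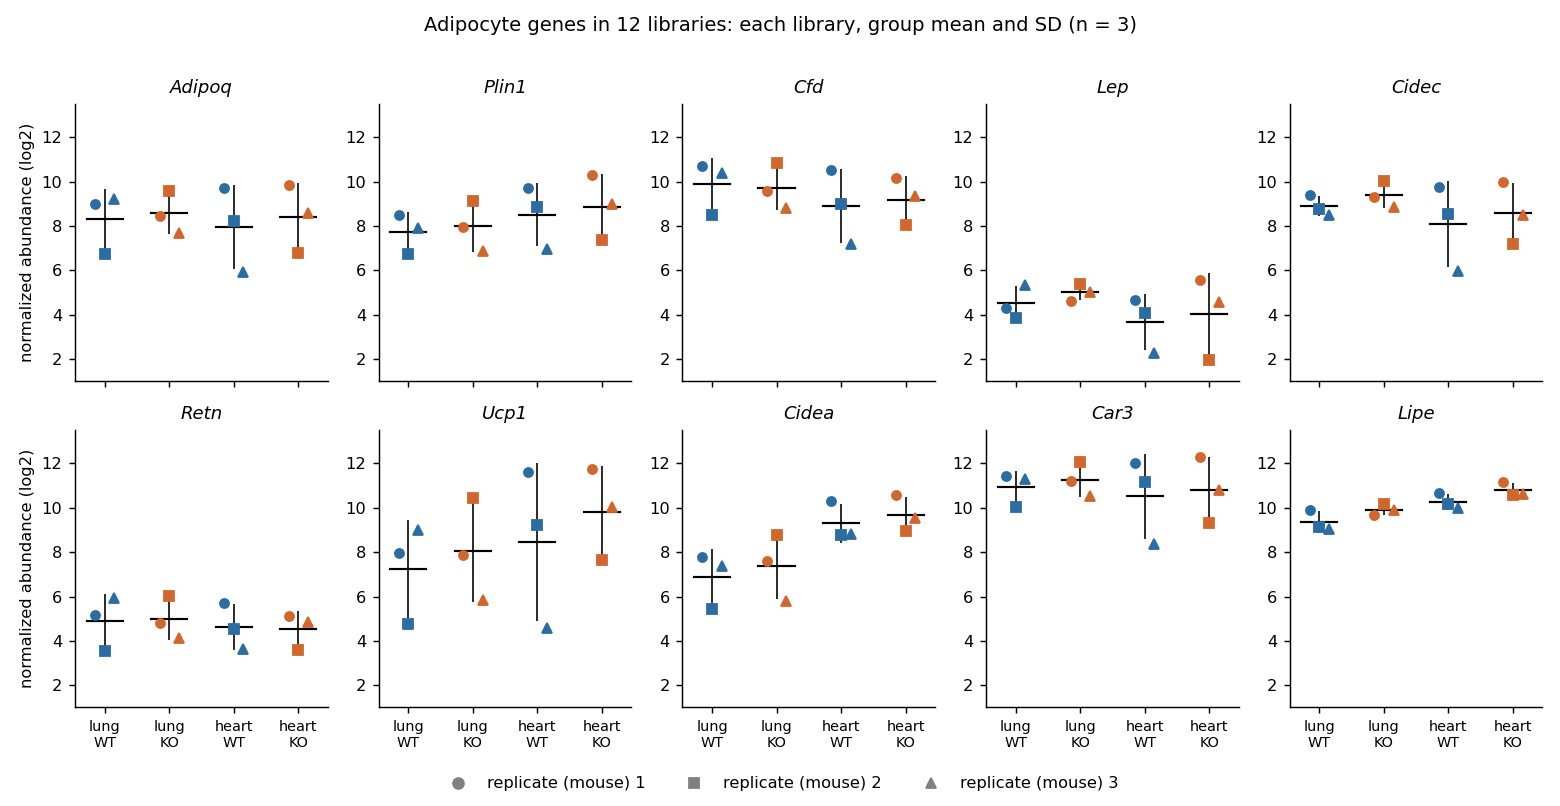
Normalized abundance (log2, vertical axis) of the 10 genes in each library of 4 groups; symbols mark the mouse, horizontal bars the mean and vertical bars the SD (n = 3). In each gene WT (blue) and KO (orange) points overlap within a tissue, and the Ucp1 panel has the widest scatter, from 4.58 to 11.75 in heart.

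Compared per length, as estimated counts per kilobase of transcript in 1000000 protein-coding counts, the median over the 6 lungs was 88.3 for Car3, 71.5 for Cfd, 21.2 for Adipoq, 19.8 for Lipe and 14.5 for Cidec. Below them came Ucp1 at 9.37, Cidea at 9.02, Plin1 at 7.16, Retn at 2.27 and Lep at 0.586. The order in heart was Car3 at 42.7, Cfd at 23, Lipe at 20.5, Ucp1 at 18.5 and Cidea at 18.3, then Adipoq at 9.69, Plin1 at 7.91, Cidec at 5.29, Retn at 1.05 and Lep at 0.224. Every pair of neighbours in either order overlapped in range over the 6 libraries. The brown fat genes Ucp1 and Cidea ranked 6 and 7 in lung and 4 and 5 in heart. Their ratio was not constant, since log2 Cidea minus Ucp1 ran from -1.29 to 4.23 over the hearts, a 46.0-fold range. The highest value was that of heart WT 3 alone, where Ucp1 had 12.8 estimated counts. In the other hearts this difference ran from -1.29 to 1.295. Over the lungs it ran from -1.65 to 0.675, a 4.99-fold range.

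The libraries moved as whole profiles. In lung, KO 2 was the highest library for 10 of 10 genes, and WT 2 was among the lowest 2 for 10 of 10. In heart, KO 1 and WT 1 were the top 2 libraries for 10 of 10 genes, WT 3 was in the lowest 2 for 10 of 10, and KO 2 for 8 of 10. High and low libraries thus came from both genotypes. By total estimated counts the lungs ran KO 2 (28043361), WT 3, KO 1, WT 1, WT 2, KO 3, close to their order in Adipoq, which was KO 2, WT 3, WT 1, KO 1, KO 3, WT 2. The hearts ran KO 2 (35862932), KO 3, WT 1, KO 1, WT 2, WT 3 (18392292) by counts and KO 1, WT 1, KO 3, WT 2, KO 2, WT 3 in Adipoq. The noncoding RNA Rn7s1 took 2.18 to 33.7% of the estimated counts of lung libraries, 29.6% of them in WT 2 and 33.7% in WT 1. The part of depth and of Rn7s1 in the spread was not tested.

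In heart, genes of atrial muscle were low in the same libraries as the adipocyte genes, except Nppa, which was low in WT 3 alone. Of the 10 heart muscle markers read, 4 are typical of atria, and their r with Adipoq over the 6 hearts was 0.896 for Myl7, 0.883 for Myl4, 0.876 for Sln and 0.700 for Nppa. Myl7, the atrial myosin light chain, stood at 12.47 in WT 3 and 12.76 in KO 2, the hearts poorest in Adipoq, against 14.49 to 15.41 in the other 4. Sln, sarcolipin, stood at 9.83 and 10.10 in those hearts against 12.28 to 12.65. Actc1, cardiac actin, ran the other way (r = -0.931), and the sum of all 10 markers stayed within 20.80 to 21.07. Myh6 weighed most in that sum, at 20.05 to 20.44 in hearts, so a fall of the atrial genes would hardly move it. These r values are descriptions over libraries that share depth and scaling, and the part of atrial tissue in the heart values of the adipocyte genes was not tested.

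**Figure D2:**
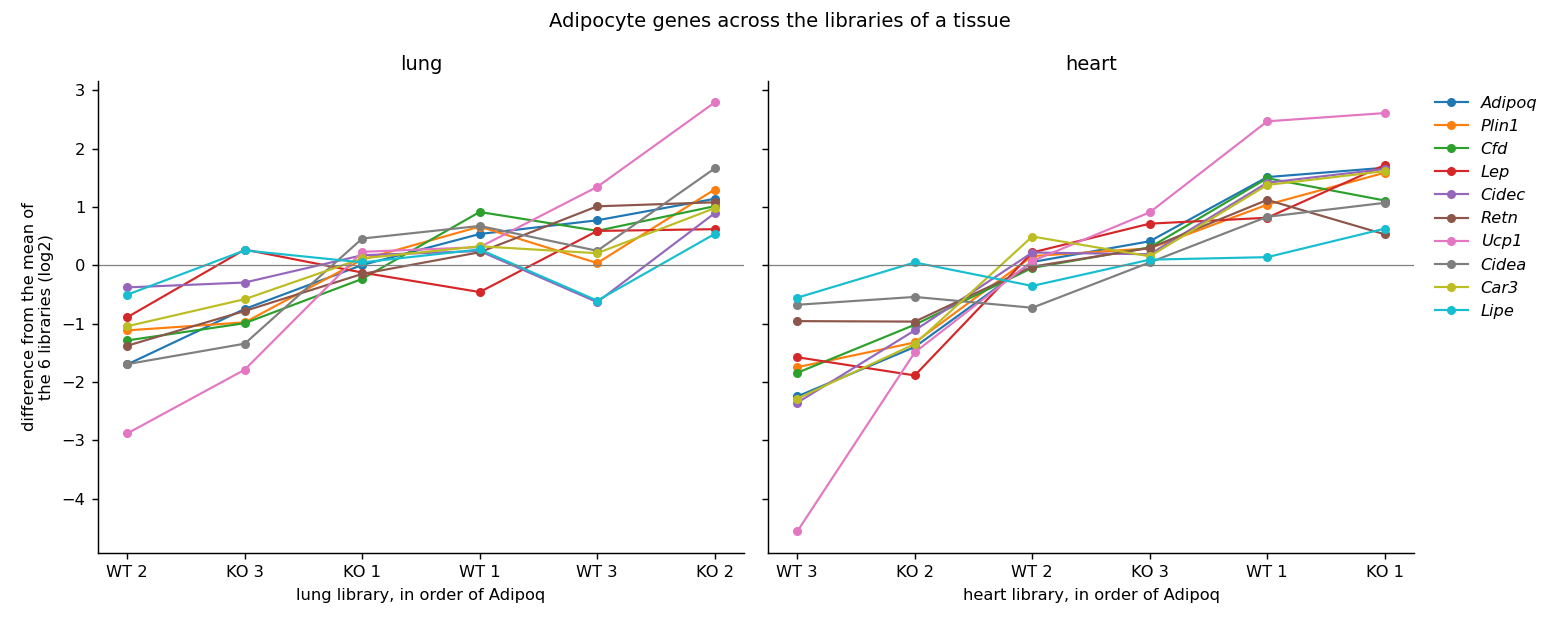
Difference of each gene from its own mean over the 6 libraries of a tissue (log2, vertical axis), with libraries ordered by Adipoq (horizontal axis) and 1 line per gene. Most lines climb together from WT 2 to KO 2 in lung and from WT 3 to KO 1 in heart, Ucp1 is steepest, and Lipe is nearly flat with a 2.21-fold range in lung and 2.27-fold in heart.

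Pearson's r with Adipoq over the 6 mice put numbers on this shared order, in a family of 28 relations with exact two-sided permutation p-values adjusted by Benjamini-Hochberg. In lung, r was 0.976 for Retn (adjusted exact p = 0.00972), 0.971 for Ucp1 (0.00972), 0.966 for Car3 (0.0111), 0.957 for Cfd (0.0130), 0.934 for Cidea (0.0156) and 0.909 for Plin1 (0.0299), so 6 of 9 relations passed. Lep (r = 0.695, adjusted exact p = 0.226), Cidec (0.523, 0.440) and Lipe (0.393, 0.578) did not pass in lung. In heart 7 of 9 passed, from 0.946 for Lep to 0.993 for Cidec, with adjusted exact p-values from 0.00972 to 0.0194. The heart relations that did not pass were those of Cidea (r = 0.858, adjusted exact p = 0.0972) and Lipe (0.758, 0.127). The genes were chosen with this spread known, so these p-values are no independent evidence of it.

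Spearman's rho was 1 for Retn and Ucp1 in lung and for Plin1 and Ucp1 in heart (adjusted exact permutation p = 0.0194), and it lay between 0.371 and 0.943 for the other lung relations and between 0.829 and 0.943 for the other heart relations. Without the 2 libraries farthest from the median of Adipoq (WT 2 and KO 3 in lung, WT 3 and KO 2 in heart), r ran from 0.195 for Lipe to 0.934 for Retn in lung and from 0.816 for Retn to 0.995 for Ucp1 in heart. Taken as deviations from the mean of each genotype, r was 0.411 for Lipe to 0.980 for Cfd in lung and 0.857 for Cidea to 0.993 for Cidec in heart.

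Slopes against Adipoq were steepest for Ucp1. Per unit of log2 Adipoq, Ucp1 rose by 1.89 in lung and 1.70 in heart, and Cidea by 1.13 in lung and 0.433 in heart. Plin1 (0.798 and 0.826) and Cfd (0.894 and 0.799) had like slopes in both tissues. Cidec rose by 0.271 in lung and 0.965 in heart, Car3 by 0.650 and 0.970, Lep by 0.395 and 0.864, and Retn by 0.899 and 0.506. Lipe was lowest in both, at 0.170 and 0.201. Slopes are descriptions over 6 mice and carry no test.

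Gene by gene, the log2 difference from Adipoq shows which genes kept a constant ratio. Cidec minus Adipoq lay between -0.09 and 0.42 in the 6 hearts, a 1.42-fold range, although each gene alone ranged over 15-fold. Cidea minus Adipoq was 2.87 in heart WT 3 and 2.16 in heart KO 2, and 0.52 to 0.94 in the other 4 hearts. Lipe minus Adipoq was likewise 4.03 and 3.79 in those low hearts and 0.97 to 2.03 in the others. In hearts with little Adipoq, then, Cidea and Lipe had not fallen in proportion. Lung showed the same for Lipe and Cidec, whose difference from Adipoq was highest in WT 2, at 2.39 and 2.01.

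No relation between the lung and the heart of the same mouse passed the test. Lung WT 3 and lung KO 2 were the 2 richest lungs in Adipoq, and the hearts of the same animals were the 2 poorest. Between lung and heart of the same mouse, r was -0.351 for Adipoq (adjusted exact permutation p = 0.602) and ran from -0.623 for Lep to 0.668 for Lipe over the 10 genes, with 0 of 10 passing and a lowest adjusted exact p of 0.249. Without the 2 mice farthest from the median lung value of each gene, r ran from -0.832 for Lipe to 0.969 for Cidec (0.234 with all mice) and was -0.779 for Adipoq, so these values rest on few mice. At n = 6 a weak relation could not have passed.

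The spread of each gene was measured as the SD within WT and KO groups. The median over the 10 genes was 1.06 in lung and 1.51 in heart, beside 0.285 and 0.244 over all genes tested (16551 in lung, 15303 in heart). Ucp1 had an SD of 2.25 in lung and 2.92 in heart, higher than 99.2% and 99.8% of the genes tested. Adipoq had 1.18 and 1.73, at the 97.5th and 98.8th percentile. Lipe, with 0.38 and 0.34, was at the 69.8th and 69.5th percentile, and Cidec was at the 86.0th in lung but the 98.7th in heart.

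**Figure D3:**
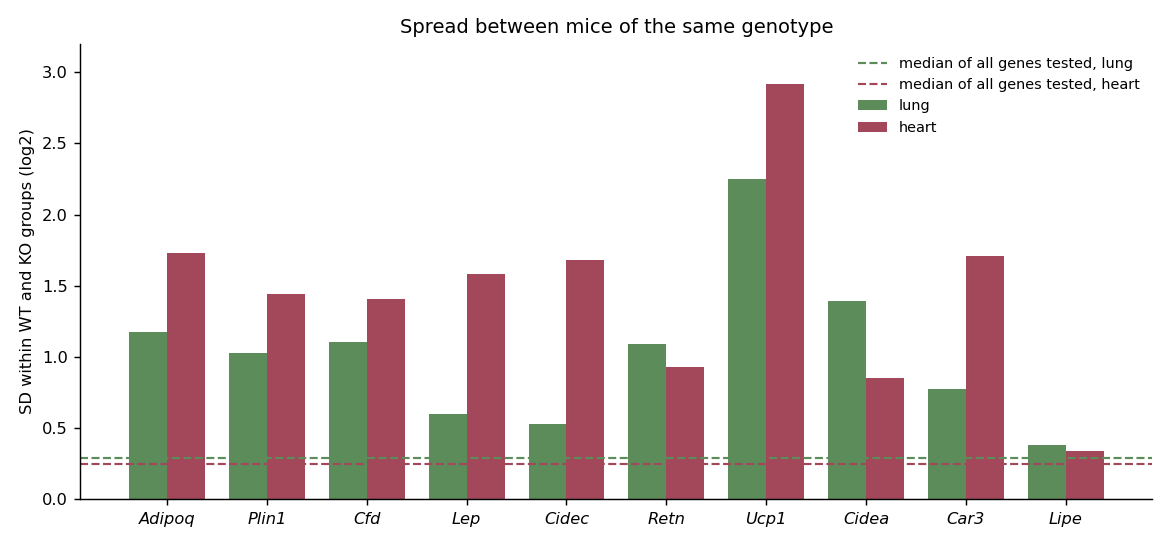
SD between mice of the same genotype (log2, vertical axis, pooled over WT and KO) for each gene in lung and heart, with dashed lines for the median of all genes tested (0.285 in lung, 0.244 in heart). Every bar stands above its line, and the tallest are those of Ucp1 at 2.25 and 2.92.

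Genotype was tested with limma on the deposited log2 values of each tissue, and a gene was called with an adjusted p under 0.05, a fold of at least 1.5 and a group mean of at least 6. In lung 0 of 10 adipocyte genes were called, where 11 of 16551 genes tested were (0.0665%). At an unadjusted p under 0.05 the count was also 0 of 10, with 981 genes (5.93%) in the whole table, and limma-voom called 0 of 10. Mean KO minus WT differences ran from -0.14 for Cfd to 0.82 for Ucp1, 9 of 10 were positive, and their median was 0.43 beside 0.01 over all genes tested. For Ucp1 the 95% interval of that difference was -2.04 to 3.68 and the adjusted p 0.908. Lipe had the lowest adjusted p, 0.829, at 9.36 ± 0.48 in WT and 9.92 ± 0.24 in KO lungs.

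Most of the 9 positive signs in lung rested on single libraries. Without lung WT 2, 3 of 10 differences were positive (median -0.21), and without lung KO 2 again 3 of 10 (median -0.21). Lep, Cidec and Lipe were the 3 genes whose difference stayed positive whichever lung was left out. Markers of skeletal muscle stood apart in lung WT 2, the library lowest in 8 of the 10 genes, with a summed level of 11.37 (log2 scale) against 6.74 to 7.12 in the other lungs. All 10 markers of that list were above 0 there, Myh1 at 10.21 against 0.73 to 4.8 elsewhere. The part of this in the adipocyte values was not tested.

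In heart 0 of 10 genes were called as well, where 13 of 15303 were (0.085%). At an unadjusted p under 0.05 there was 1 of 10, Lipe, beside 1141 genes (7.46%) of the whole table, and limma-voom called 0 of 10. Lipe stood at 10.27 ± 0.36 in WT and 10.78 ± 0.32 in KO hearts, a log2 difference of 0.51 ± 0.22 (SE) with an adjusted p of 0.650, and its groups overlapped. Differences ran from -0.09 for Retn to 1.35 for Ucp1, 9 of 10 were positive, and the median was 0.38 beside 0.03 over all genes. Ucp1 had a 95% interval of -2.30 to 5.0. Without heart WT 3, or without heart KO 1, 2 of 10 differences were positive, with medians of -0.57 and -0.25.

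Tested as a difference between tissues (the interaction of genotype and tissue), 0 of 10 genes were called, where 1 of 17666 genes tested was (0.00566%), 0 of 10 had an unadjusted p under 0.05, and 1392 genes of the whole table did (7.88%). Taking genes singly, no exact permutation p of 3 against 3 can fall under 0.10, and the lowest among the 20 differences was 0.30. The 95% interval of the Adipoq difference ran from -1.26 to 1.78 in lung and from -1.72 to 2.63 in heart. At this number of mice, folds from 0.418 to 3.44 in lung and from 0.303 to 6.21 in heart thus lay within the interval. The narrowest intervals were those of Lipe, at -0.01 to 1.13 in lung and 0.02 to 1.0 in heart.

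**Figure D4:**
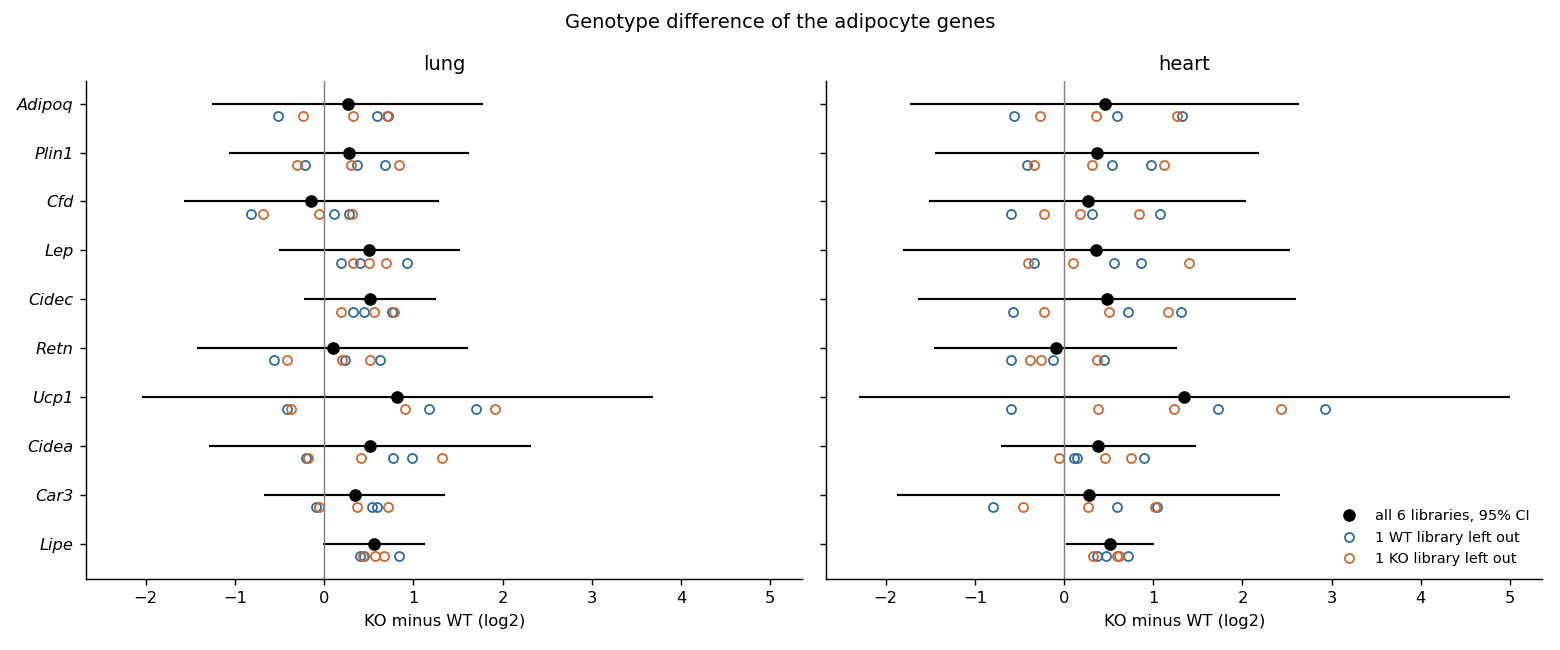
KO minus WT difference (log2, horizontal axis) of each gene in lung and heart, with the 95% interval (black) and the same difference with 1 WT (blue) or 1 KO (orange) library left out. All intervals but that of Lipe in heart cross 0, and in most genes open circles lie on both sides of it, as for Ucp1 in heart from -0.60 to 2.92.

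Lung against heart was called for 2 of 10 genes, where 9070 of 17666 genes tested were called (51.3%). Cidea was lower in lung, with a log2 difference of -2.36 ± 0.54 (SE), a 5.14-fold higher level in heart (limma, adjusted p = 0.00150). Lipe was also lower in lung, with a difference of -0.89 ± 0.18, or 1.85-fold higher in heart (adjusted p = 6.08e-04). Both were higher in the heart of 6 of 6 mice (exact sign-flip permutation p = 0.03125, the smallest that 6 mice allow). The median over all genes tested was 0.31, so relative to it the differences were -2.67 for Cidea and -1.2 for Lipe.

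The other 8 genes were not called, and their mice disagreed in sign. Ucp1 was lower in lung by 3.66 to 4.46 in 4 mice, and higher by 4.40 in mouse WT 3 and by 2.78 in mouse KO 2. Its mean difference was -1.50 ± 1.21 (adjusted p = 0.273). Adipoq split the mice in the same way, with 0.71 to 1.49 lower levels in the lungs of 4 mice and 3.28 and 2.80 higher levels in WT 3 and KO 2. With transcripts summed per gene and scaled to the library total, Cidea and Cidec were called and Lipe was not. That setting moved the median of all genes to 0.88, and relative to the median Lipe stood at -1.21 and Cidec at 0.45, beside -1.2 and 0.51 in the deposited gene values. Without heart WT 3, Ucp1 joined Cidea and Lipe.

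**Figure D5:**
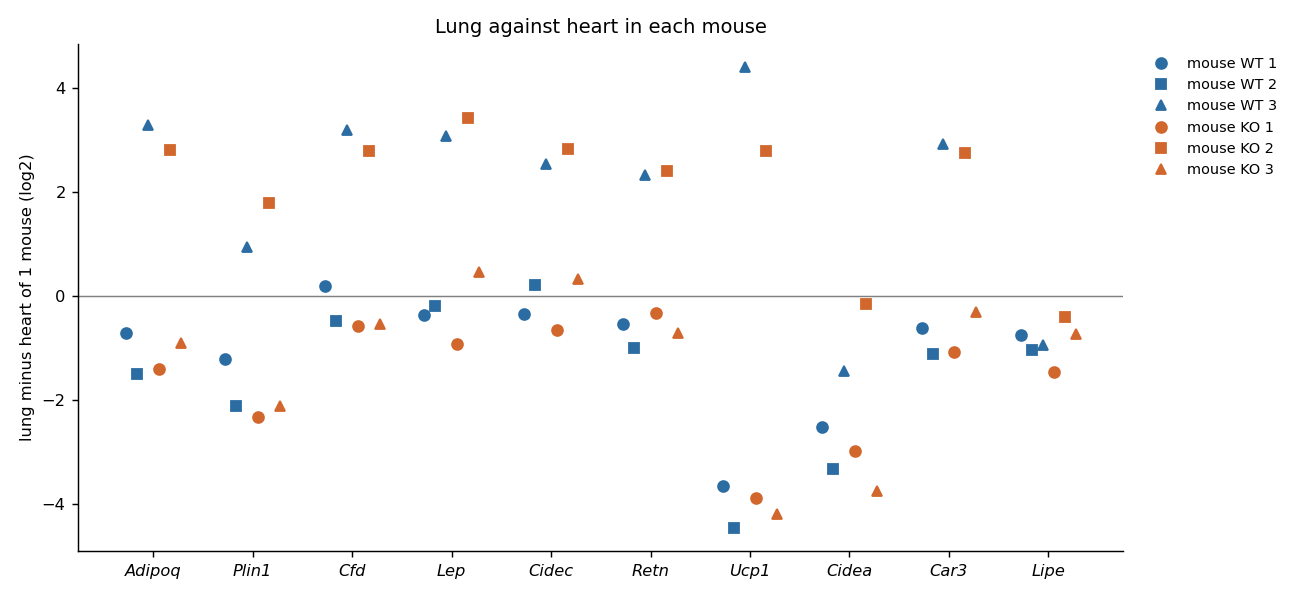
Lung minus heart difference within each mouse (log2, vertical axis) for the 10 genes; 1 point per mouse, blue for WT and orange for KO. Mice WT 3 and KO 2 lie above the other mice for most genes, at 4.40 and 2.78 for Ucp1, and only Cidea and Lipe lie below 0 in 6 of 6 mice.

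Other genes of fat were read from lists of the pathway, of which 0 were called between KO and WT in either tissue. Of 32 other genes of white adipocytes and lipid storage, 32 were tested in lung (24 positive, median 0.15) and 31 in heart (25 positive, median 0.25). With r over 0.9 against Adipoq stood 7 of 32 in lung (21.9%) and 13 of 31 in heart (41.9%), beside 0.743% and 1.30% of all genes tested. Their median r was 0.648 and 0.8105, where that of all genes tested was 0.054 and 0.030. Fatty acid synthase, Fasn, ran from 11.68 in heart WT 3 to 15.04 in heart KO 1, and Pck1, of glyceroneogenesis, from 6.21 to 11.95 in the same hearts. These had high r in heart (0.981 and 0.983), but other genes of the list went against Adipoq there. Those were Adcy5 (r = -0.726), Acsl1 (-0.576), Lpl (-0.575), Slc2a4 (-0.448), Pnpla2 (-0.418) and Cd36 (-0.118). The 3 highest list members on average in lung were Scd1, Cd36 and Fasn, and in heart Lpl, Cd36 and Acsl1, genes that lung or heart cells also express.

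Of 20 other genes of brown adipocytes, 1 of 16 tested in lung and 4 of 17 in heart had r over 0.9 (median r 0.652 and 0.175), and their median KO minus WT difference was 0.10 in lung (9 positive) and 0.08 in heart (12 positive). Otop1, a proton channel of brown fat, stood at 2.07 in heart WT 3 and at 7.52 in heart KO 1. Elovl3, a fatty acid elongase of brown fat, stood at 1.83 and 6.56 in those hearts. Otop1 and Elovl3 had high r in heart (0.977 and 0.982), but other tested genes of the list went against Adipoq there. Those were Kcnk3 (r = -0.618), Cpt1b (-0.555), Prdm16 (-0.517), Fabp3 (-0.369), Ppargc1a (-0.366), Ppara (-0.299) and Plin5 (-0.296). Of the genes of preadipocytes and adipose stroma, 0 of 10 tested in either tissue had r over 0.9, where the shares over all genes would place fewer than 1, and median r was 0.0022 and 0.233. In heart the highest r among them were those of Dpp4 (0.898), Pdgfra (0.832) and Cd34 (0.779). The summed level of this list ranged 1.09-fold over lungs and 1.2-fold over hearts, while that of the 10 adipocyte genes ranged 4.25-fold and 7.51-fold. Its most abundant genes weigh most in such a sum, with means of 13.05 for Pdgfra and 12.95 for Icam1 in WT lung. In WT heart they were Fbn1 (11.87) and Cd34 (11.74). Stroma of attached fat and stroma of the organ itself cannot be told apart in these sums.

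Between tissues, 7 of the 32 white adipocyte list genes were called higher in lung and 13 lower, with a median of -0.43, where 30.1% of all genes tested were called higher and 21.2% lower. Slc2a4, the insulin-responsive glucose transporter, was lower in lung, with a log2 difference of -5.93 ± 0.15 (SE). Lpl, lipoprotein lipase, differed by -5.01 ± 0.12, whereas the amino acid transporter Slc7a10 was higher in lung by 5.90 ± 0.64. In heart Slc7a10 stood at 0 in WT 3 and KO 2 and at 3.87 or less elsewhere. The size of its difference thus rests on values near the floor. Of the 17 brown adipocyte list genes tested, 12 were called lower in lung (21.2% of all genes tested) and 0 higher (30.1%), with a median of -3.53. Leading them were Fabp3 (-7.21 ± 0.16), Cpt1b (-6.68 ± 0.23), Cox7a1 (-6.48 ± 0.21) and Cox8b (-6.22 ± 0.29), which heart muscle expresses as well. Adjusted p-values of these genes were 2.32e-06 or lower.

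Droplet coat genes outside the 10 members (10 listed, with Plin4 and Plin5 also in the lists above) had a median r with Adipoq of 0.268 in lung and 0.255 in heart, and 0 of 10 passed 0.9 in either. Adipokine receptors and partners (13 listed) had a median r of 0.244 over 11 genes in lung and 0.698 over 10 in heart. Only Cfb, complement factor B, passed 0.9, in heart (r = 0.949), followed by C3 (0.897), the central complement component, and Rarres2 (0.812), which encodes chemerin. Cfb ran from 5.40 in heart KO 2 to 6.67 in heart KO 1.

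The genes outside every list that were most like Adipoq were ranked by r over 6 libraries, among genes with a range at least 50% of that of Adipoq. In lung they were Zfp536 (r = 0.987), Sh2b2 (0.968), Col11a2 (0.954), Klb (0.953) and Lctl (0.945), among 2573 genes ranked. In heart they were Sh2b2 (0.999), Hp (0.995), Cdo1 (0.988), Elovl6 (0.988) and Lgals12 (0.986), among 1114. Sh2b2, an adaptor of receptor tyrosine kinases, was in both, and ran from 5.38 to 6.89 in lung and from 3.97 to 6.55 in heart. Genes with r over 0.95 numbered 9 in lung, of which 4 were members and 1 a listed gene, and 47 in heart, of which 6 were members and 11 listed genes.

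Markers of other tissues were read in the same libraries. Heart muscle markers summed to 13.67 to 15.01 in lungs and 20.80 to 21.07 in hearts, and lung epithelium markers to 18.96 to 19.25 in lungs and 6.61 to 11.02 in hearts, so the tissue labels held. In hearts the lung epithelium sum was highest in KO 1 (11.02), the richest in Adipoq, but stood at 9.96 in WT 3, the poorest. Cartilage markers ranged 19.2-fold over lungs and thymus markers 1.72-fold, with median r of 0.157 and 0.273 over 3 genes tested of each. Cd8b1 and Themis weighed most in the thymus sum. Some other thymus markers stood apart in lung WT 3, the second richest lung in Adipoq. Rag1 stood at 5.69 there, Rag2 at 2.86 and Psmb11 at 2.79, each at 0 in the other lungs. Dntt stood at 5.09 against 2.77 to 3.72. These genes were too low to be tested. Ptcra was at 0 in lung WT 3, and Tbata was highest in lung KO 2. Mesothelium markers ranged 1.15-fold over lungs and 1.77-fold over hearts, with median r of -0.007 and 0.632, so in heart this list moved in part with Adipoq. Red blood cell genes ranged 19.8-fold and 7.94-fold, with median r of -0.0229 and 0.063. Skeletal muscle markers summed to 9.68 to 10.93 in hearts. Their sum went against Adipoq, with r of -0.785 in lung, where WT 2 alone was high, and -0.777 in heart. The median r of single genes was -0.780 over 6 in lung and 0.289 over 5 in heart. In hearts the sum was mostly that of Mybpc2, at 9.45 to 10.87 (r = -0.778), with every other marker at 6.01 or less. Among the other genes tested there, r was -0.251 for Myh2, 0.289 for Actn3, 0.512 for Tnni2 and 0.528 for Atp2a1. The part of any of these tissues in the adipocyte values was not tested.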

How the data were processed

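RNA from whole lung and heart was sequenced on stranded total RNA libraries. The authors quantified reads with Salmon against GENCODE vM33 transcripts of mm39 and deposited log2 values, per gene after scaling between libraries and per transcript as log2(1 + estimated count). Their processing notes also name cutadapt, STAR and limma 3.42.2. The step from transcripts to genes and the scaling are not given in the sources used here. Lung and heart libraries were paired by the mouse identifiers in the labels.

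Deposited gene values of at least 3.459 (log2 of 11) in 3 libraries were fitted with limma 3.58.1 (R 4.3.3) with a variance trend, and p-values were adjusted over all genes tested. The fits were tested on simulated data in which the largest spreads were capped. That test therefore does not show the power for the most variable members, such as Ucp1. Depth is the sum of estimated counts, and the sampling error of low genes, such as Lep, is larger. Exact permutation and sign-flip tests were run over mice. Replicates are separate mice. Named genes were the members, the 5 most like Adipoq per tissue, and in lists the 5 with the largest called difference or the 3 of highest mean. Other named genes, namely Fasn, Pck1, Otop1 and Elovl3 in heart, the atrial genes and Actc1, Dpp4, Pdgfra, Cd34, Cfb, C3, Rarres2, Myh1 and the Cidec transcripts, were chosen after their values were seen. List genes named for a negative r with Adipoq in heart, and Fbn1, were also chosen after their values were seen. The same holds for the thymus and skeletal muscle markers named singly. Members and lists were chosen with earlier results of these data known. Promoters and positions came from GRCm39 with GENCODE vM39, matched by identifier without version.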

Additional observations from a re-analysis of the deposited data

How the results depend on the processing

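The limits are 3 mice per group, fat that was not weighed, and low counts for Lep and Retn. Over 14 alternatives, 0 members were called between genotypes in either tissue, and 0 for the interaction over 20. With 1 lung library left out, KO minus WT differences ran from -0.52 to 0.71 for Adipoq, -0.30 to 0.84 for Plin1, -0.82 to 0.32 for Cfd, -0.57 to 0.63 for Retn, -0.42 to 1.92 for Ucp1, -0.20 to 1.32 for Cidea and -0.094 to 0.72 for Car3. In heart they ran from -0.56 to 1.32 for Adipoq, -0.41 to 1.12 for Plin1, -0.59 to 1.08 for Cfd, -0.41 to 1.40 for Lep, -0.58 to 1.31 for Cidec, -0.60 to 0.44 for Retn, -0.60 to 2.92 for Ucp1, -0.055 to 0.90 for Cidea and -0.80 to 1.04 for Car3. Lung minus heart ran from -0.24 to 0.70 for Adipoq and -0.11 to 0.81 for Car3. With transcripts summed per gene, the median of all genes was 0.02 under median-of-ratios scaling and 0.30 under library total scaling for lung KO minus WT, and 0.10 and 0.88 for lung minus heart (0.01 and 0.31 in the deposited gene values). Library total scaling gave Cfd a lung difference of 0.14 and Plin1 a lung minus heart difference of 0.024, both opposite in sign to the values above, and relative to the medians under it Cfd stood at -0.15, Lipe at -1.21 (-0.33 in itself, limma adjusted p = 0.140), Cidea at -2.68 and Cidec at 0.45. Limma-voom turned Lep in heart to -0.011. Without the 2 farthest mice, r between lung and heart changed sign to 0.182 for Plin1, -0.315 for Cidea, 0.0277 for Car3 and -0.832 for Lipe, and moved to 0.969 for Cidec and -0.779 for Adipoq, where the cause was not tested. Genes called for the interaction numbered 0 to 5 with 1 library left out, 4 with a pseudocount of 8, 0 with library total scaling and 2 with the mouse as replicate block, and genes called in heart 10 to 21 with 1 library left out (21 without KO 2). The replicate block changed no call of a member. Between lung and heart, 2 members were called in the block and 2 to 3 with 1 library left out.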
